A study of Mus musculus with 16 samples.

Results

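The 10 genes described here are *Neurod2*, *Neurod6*, *Bhlhe22*, *Slc17a6*, *Slc17a7*, *Mef2c*, *Nfia*, *Nfib*, *Nfix* and *Bcl11a*, which were chosen by name as genes of postmitotic glutamatergic neurons in all layers of the cortex, 10 of 51912 genes listed in the count files. Their levels were compared in E15.5 mouse cortex between 7 control (ctrl) mice, 4 *Knl1* conditional knockout (cKO) mice and 4 *Knl1* *Trp53* double conditional knockout (dKO) mice. In cKO mice, *Knl1* is deleted by *hGFAP-Cre*, and in dKO mice both *Knl1* and *Trp53* are deleted by the same transgene, a Cre line whose recombination starts in cortical neural progenitor cells (NPCs), so that neurons born before Cre acts keep the genes. The ctrl group held 5 *Knl1* wild-type mice and 2 heterozygotes (T4 and T5), and the labels do not say which of the 7 carried Cre. KNL1 is a kinetochore scaffold needed for the spindle checkpoint, and TRP53 (p53) is the tumor suppressor that responds to genome damage. RNA was ribosomal RNA-depleted and sequenced by ClickSeq, which primes cDNA at random and tags each molecule with a unique molecular identifier (UMI), so the values count deduplicated reads over all exons of a gene.

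Excitatory cortical neurons are born from progenitors in the dorsal forebrain, migrate to the cortical plate and release glutamate. Their identity is built by transcription factors of the basic helix-loop-helix (bHLH), MEF2, nuclear factor I (NFI) and zinc finger families, and glutamate is loaded into their synaptic vesicles by transporters of the SLC17A family. None of the 10 genes belongs to these neurons alone. The NFI genes are also expressed in radial glia, *Slc17a6* in thalamus, *Mef2c* in interneurons and microglia, and *Bcl11a* in interneurons. In whole cortex, fewer cells of a type and less RNA per cell cannot be told apart.

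Of the 10 genes, *Nfix* was lower in cKO than in ctrl and was the only one past the threshold, an FDR below 0.05 over all listed genes, in any of the 3 comparisons by edgeR's likelihood ratio test, the test used throughout unless another is named. *Nfia*, *Nfib* and *Slc17a6* lay below ctrl in both mutants at unadjusted p-values below 0.05 that did not pass the FDR threshold in this test. Other tools called more members in cKO versus ctrl, and also more genes in all. The likelihood ratio test called 83 of 51912 genes, the quasi-likelihood test 352 of 51912 and DESeq2 138 of 25751. Beside *Nfix*, edgeR's quasi-likelihood test called *Slc17a6* (FDR = 0.021), *Nfia* (FDR = 0.00131) and *Mef2c* (FDR = 0.000949), and DESeq2 called *Slc17a6* (FDR = 0.0266), *Nfia* (FDR = 0.00674) and *Nfib* (FDR = 0.0011). *Neurod2*, *Neurod6*, *Bhlhe22*, *Slc17a7* and *Bcl11a* had unadjusted p-values above 0.05 in all 3 comparisons.

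The start regions of *Slc17a6*, *Nfia* and *Nfix*, the 3 genes with the lowest log fold changes in cKO, are shown because these genes lay below ctrl together. RefSeq gave start sites for 8 of the 10 genes (GRCm38.p6), with none for *Bhlhe22* and *Nfib*. Each line holds the 250 bases before the first listed start site, 5′ to 3′ on the strand of the gene. Capitals mark the NFI half-site (TTGGC, or GCCAA on the other strand) and the NeuroD E-box (CAGATG, or CATCTG on the other strand).
Slc17a6, chr7:51621580-51621829, plus strand: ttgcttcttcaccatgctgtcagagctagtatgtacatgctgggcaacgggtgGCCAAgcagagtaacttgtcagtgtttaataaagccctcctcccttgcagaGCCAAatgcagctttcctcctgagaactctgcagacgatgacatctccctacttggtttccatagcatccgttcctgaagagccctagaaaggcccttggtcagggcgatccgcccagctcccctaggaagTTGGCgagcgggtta
Nfia, chr4:97581693-97581942, plus strand: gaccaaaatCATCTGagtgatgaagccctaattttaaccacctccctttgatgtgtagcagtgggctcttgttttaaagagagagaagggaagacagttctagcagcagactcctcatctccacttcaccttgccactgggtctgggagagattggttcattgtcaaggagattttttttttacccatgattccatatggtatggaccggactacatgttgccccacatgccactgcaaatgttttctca
Nfix, chr8:84780083-84780332, minus strand: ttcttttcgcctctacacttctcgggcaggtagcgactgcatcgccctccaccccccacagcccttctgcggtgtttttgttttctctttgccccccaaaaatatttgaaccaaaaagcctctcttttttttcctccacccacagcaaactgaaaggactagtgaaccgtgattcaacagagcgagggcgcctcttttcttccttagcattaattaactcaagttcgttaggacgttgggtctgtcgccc
The *Slc17a6* window held 3 NFI half-sites and no E-box, the *Nfia* window held no half-site and 1 E-box, and the *Nfix* window held 0 of both. RefSeq also lists a second start of *Slc17a6*, whose window held 1 E-box and no half-site, and 3 further starts of *Nfix*, of which 1 held a half-site, 1 held a half-site and an E-box and 1 held neither. Of 32851 windows of the same length before RefSeq starts, 41.5% held an NFI half-site and 14.4% held the E-box. These matches describe letters only. The *Nfia* start and the first *Slc17a6* start of RefSeq lie before the spans of these genes in the GENCODE M21 annotation. The first *Nfix* start lies inside the span of its gene.

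The level of each gene was first ordered within a group as CPM per kilobase (kb) of exon. CPM scales the counts of a mouse to its total, adjusted by TMM (trimmed mean of M values). In ctrl, the NFI factors *Nfib* and *Nfia* were the highest, at 222 ± 18.2 and 212 ± 19.4 CPM per kb (SD, n = 7). They were followed by *Nfix* at 91.3 ± 23.4 and *Bcl11a* at 70.5 ± 3.46 CPM per kb. The bHLH genes *Neurod6* and *Neurod2* had 48.3 ± 12.9 and 45.8 ± 7.80 CPM per kb. *Mef2c* (18.5 ± 4.79), *Slc17a6* (16.3 ± 1.497) and *Bhlhe22* (11.8 ± 6.31 CPM per kb) were lower, and *Slc17a7* was the lowest at 4.09 ± 2.47 CPM per kb. Of the 9 neighboring pairs in this order, only *Nfia* over *Nfix* and *Neurod2* over *Mef2c* were apart in the ranges of the ctrl mice, and the other 7 overlapped. The order differed in cKO, where *Bcl11a* (68.8 ± 3.72 CPM per kb, n = 4) came before *Nfix* (56.5 ± 2.52), without overlap between the ranges of the 4 mice. *Bhlhe22* also came before *Slc17a6* in cKO, with overlapping ranges. In dKO the order was that of ctrl.

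**Figure D1:**
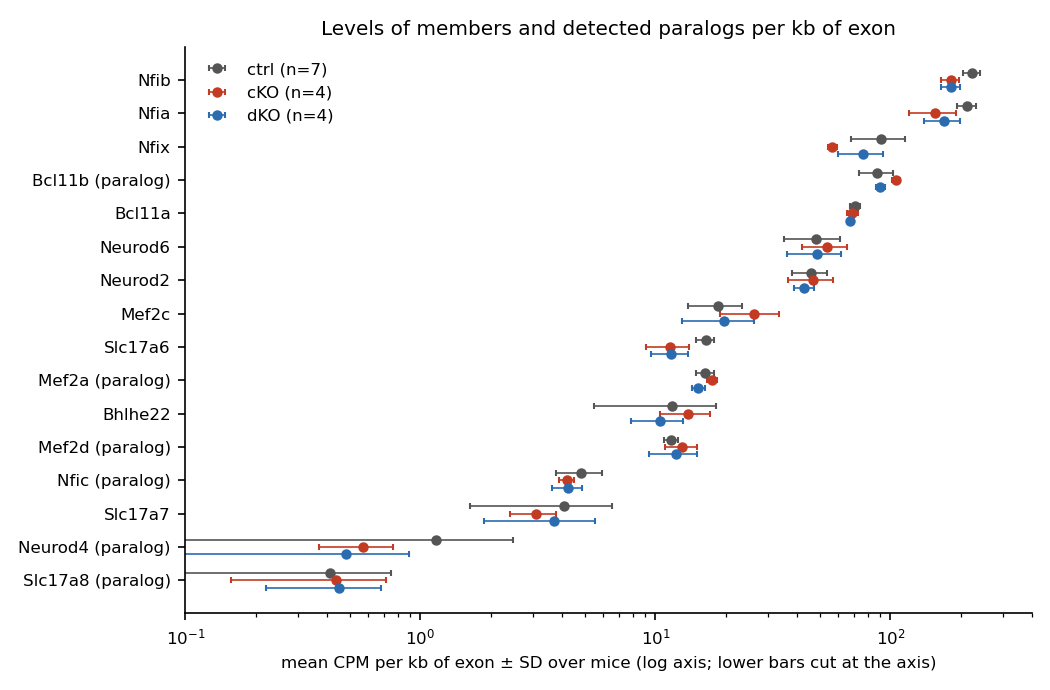
Mean CPM per kb of exon (log axis) with the SD over mice for the 10 genes and the 6 detected paralogs in ctrl (grey, n = 7), cKO (red, n = 4) and dKO (blue, n = 4). *Nfib* and *Nfia* lead in all 3 groups, and the cKO point of *Nfix* (56.5) lies below that of *Bcl11a* (68.8).

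Total counts ranged over the mice from 399832 to 3266227 (ctrl), 4178461 to 8800987 (cKO) and 552186 to 5396803 (dKO), so every cKO mouse was deeper than every ctrl mouse. Libraries S2 and S2b came from 1 cKO mouse and were added. By the labels, 3 cKO and 3 ctrl mice were in batch 1, ctrl mouse S1 alone was in batch 2, and all 4 dKO mice were in batch 3 with cKO mouse F3 and 3 ctrl mice. All 10 genes had counts in all 15 mice, the fewest being 7 counts of *Bhlhe22* and of *Slc17a7*. *Knl1* was between 48.7 and 80.0 CPM in ctrl mice, 50.004 and 80.4 among cKO and 33.4 and 58.2 among dKO mice, and *Trp53* was between 15.6 and 47.0, 24.0 and 33.3, and 19.8 and 32.3 CPM. Neither gene passed the threshold in any comparison. The counts are not resolved by exon and thus do not check the deletions.

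**Figure D2:**
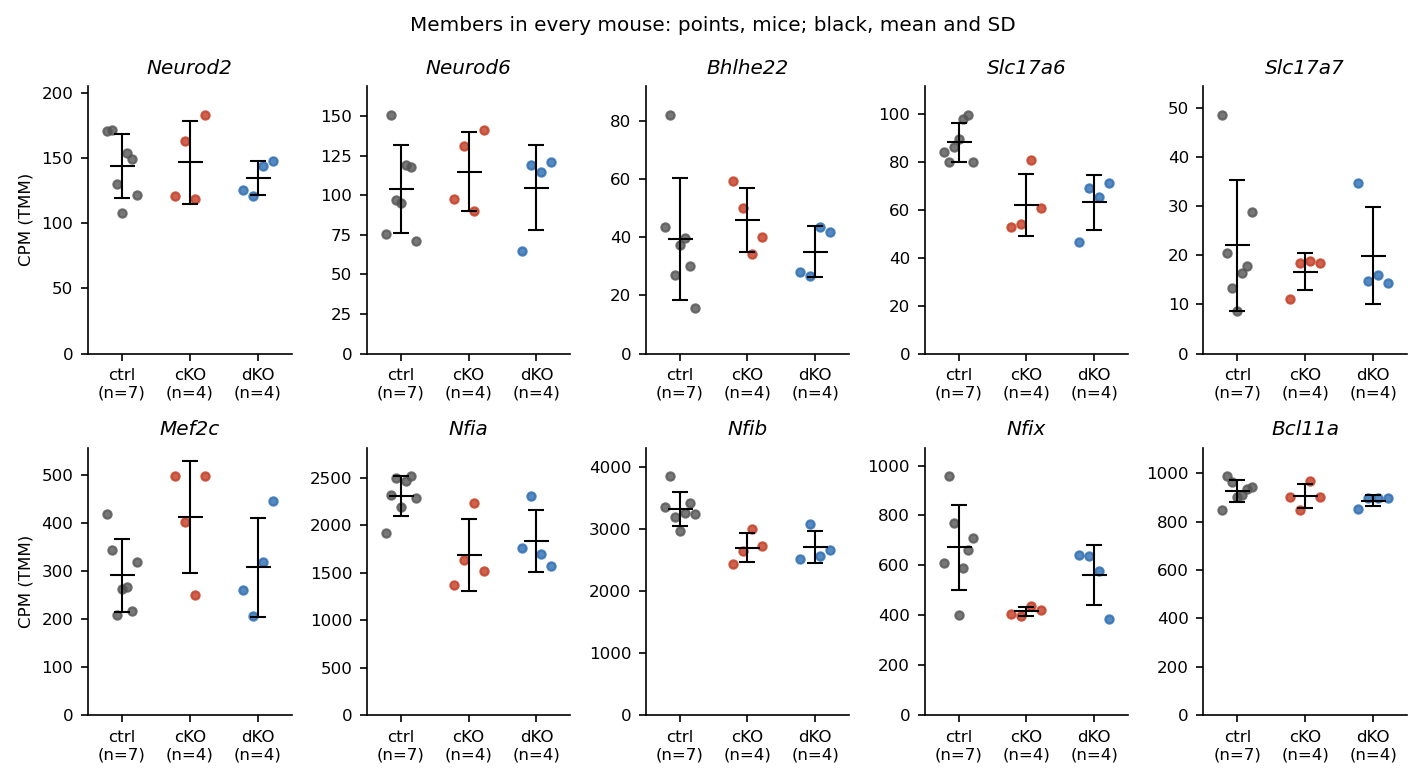
CPM of the 10 genes in every mouse (points) with the mean and SD of each group (black), for 7 ctrl, 4 cKO and 4 dKO mice, on axes that start at 0. *Nfix* is between 397.8 and 438.7 CPM in cKO, and the dKO mice lie below all ctrl mice for *Slc17a6*.

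The bHLH genes were examined first. *Neurod2* and *Neurod6* encode NEUROD factors that follow proneural genes in newborn excitatory neurons, and *Bhlhe22* (also Bhlhb5) encodes a repressor of cortical area and projection identity. *Neurod2* (ENSMUSG00000038255, chromosome 11, 98325415 to 98329648) was between 108 and 172 CPM in ctrl, with a median of 149.6. In cKO it was 121, 164, 119 and 184 CPM in mice 5, 7, S2 and F3, and in dKO 126, 121, 144 and 148 CPM in T2, T8, F1 and F7. All 3 groups overlapped, and the log fold change (on the log2 scale throughout) was 0.01 ± 0.15 (SE) in cKO versus ctrl and −0.07 ± 0.14 in dKO versus ctrl. *Neurod6* (ENSMUSG00000037984, chromosome 6, 55677822 to 55681263) was between 71.1 and 151 CPM in ctrl, with a median of 97.3. Its levels in cKO mice 5, 7, S2 and F3 were 97.7, 131, 90.0 and 141 CPM. The dKO mice T2, T8, F1 and F7 had 64.6, 119, 115 and 121 CPM, T2 standing below the other 3. Groups again overlapped, with log fold changes of 0.10 ± 0.17 in cKO and 0.02 ± 0.18 in dKO versus ctrl. *Bhlhe22* (ENSMUSG00000025128, chromosome 3, 18054174 to 18057517) spread most of the 3 in ctrl, from 15.6 to 82.3 CPM with a median of 37.5. It was 59.3, 50.3, 34.2 and 40.0 CPM in cKO mice 5, 7, S2 and F3, and 28.2, 26.8, 43.5 and 41.9 CPM in dKO mice T2, T8, F1 and F7. The log fold change of *Bhlhe22* was 0.14 ± 0.26 in cKO and −0.18 ± 0.27 in dKO versus ctrl. The directions of the bHLH genes were not stable: with litter as a covariate, the cKO log fold changes were −0.17 for *Neurod2*, −0.13 for *Neurod6* and −0.19 for *Bhlhe22*.

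Vesicular glutamate transporters were compared next. *Slc17a6* encodes VGLUT2, which is used early by developing cortical neurons and lastingly in thalamus, and *Slc17a7* encodes VGLUT1, which takes over in cortex as neurons mature. *Slc17a6* (ENSMUSG00000030500, chromosome 7, 51622006 to 51671119) was between 79.8 and 99.7 CPM in ctrl, with a median of 86.0. In cKO mice 5, 7, S2 and F3 it was 53.0, 54.0, 80.8 and 60.7 CPM. In dKO mice T2, T8, F1 and F7 it was 46.4, 69.3, 65.5 and 71.4 CPM. Every dKO mouse and 3 of the 4 cKO mice lay below every ctrl mouse, and only cKO mouse S2 overlapped ctrl. The log fold change was −0.50 ± 0.15 in cKO versus ctrl (FDR = 0.164, edgeR likelihood ratio test) and −0.42 ± 0.14 in dKO versus ctrl (FDR = 0.836). In an exact permutation test of mean CPM, 1 of 30 run over the 10 genes and 3 comparisons and not adjusted, dKO versus ctrl gave p = 0.00303 for *Slc17a6*, the smallest its 330 arrangements allow. *Slc17a6* lay below its littermates in each of the 3 litters that hold ctrl and mutant mice, with log2 ratios of mean CPM of −0.61 and −0.12 for cKO in litters 1 and 2 and −0.68 for dKO in litter 3. In the sole litter with cKO and dKO mice, litter 4, the cKO mouse was lower by a log2 ratio of −0.17. Thalamus, where *Slc17a6* is abundant, adjoins the dissected cortex, and all 4 thalamus genes had negative log fold changes in cKO. *Tcf7l2* had a log fold change of −0.53 ± 0.16 and *Lhx9* of −0.49 ± 0.23 in cKO, both at an unadjusted p below 0.05 and neither past the threshold (FDR = 0.243 and 0.852). In dKO versus ctrl, 3 of the 4 were negative and 0 were at an unadjusted p below 0.05. The dKO values were −0.22 ± 0.17 for *Tcf7l2*, −0.15 ± 0.22 for *Lhx9*, −0.01 ± 0.14 for *Rora* and 0.06 ± 0.65 for *Gbx2*. The summed level of the 4 thalamus genes was 462.6 to 682 CPM in ctrl, 437 to 464 CPM in cKO and 450.0 to 663 CPM in dKO, with none of the 4 at 0 in any group. The part of thalamic tissue in the *Slc17a6* values was not tested.

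*Slc17a7* (ENSMUSG00000070570, chromosome 7, 45163949 to 45176142) was the sparsest member. It ranged from 8.69 to 48.7 CPM in ctrl, with a median of 17.9. It was 11.2, 18.5, 18.8 and 18.4 CPM in cKO mice 5, 7, S2 and F3 and 34.8, 14.8, 16.0 and 14.4 CPM in dKO mice T2, T8, F1 and F7. The groups overlapped, and the log fold change was −0.30 ± 0.29 in cKO and −0.15 ± 0.33 in dKO versus ctrl. The ctrl mouse 2, at 48.7 CPM, decided the direction in cKO, since the value was 0.02 without it.

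*Mef2c*, a MADS-box factor of neuronal differentiation and synapse number, was the single member above ctrl in cKO at an unadjusted p below 0.05. *Mef2c* (ENSMUSG00000005583, chromosome 13, 83504034 to 83667080) was between 209 and 420 CPM in ctrl, with a median of 266. It was 498, 403, 251 and 498 CPM in cKO mice 5, 7, S2 and F3, of which 5 and F3 were above all ctrl mice and S2 below the ctrl median. In dKO mice T2, T8, F1 and F7 it was 260, 206, 320 and 447 CPM, overlapping ctrl. The log fold change was 0.49 ± 0.19 in cKO (FDR = 0.566) and 0.11 ± 0.18 in dKO versus ctrl (FDR = 1). The difference between the mutants was 0.42 ± 0.24 (FDR = 1). Litters differed in *Mef2c*: the ctrl mice of litter 1 had a mean of 382 CPM and those of litter 2 of 236 CPM. With litter as a covariate the cKO value was 0.17 and within batch 1 it was 0.26, with unadjusted p-values above 0.05 in both fits.

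The NFI factors bind the same DNA motif and act in both the differentiation of radial glia and the maturation of cortical neurons. Their summed level was 5557 to 7120 CPM in ctrl, 4202 to 5665 CPM in cKO and 4619 to 6028 CPM in dKO, and the other 7 members together had 1504 to 1839, 1564 to 1845 and 1414 to 1743 CPM. The NFI genes made up most of the summed CPM of the 10 genes, so the lower sum in the mutants mainly follows them. The sum cannot show how members at lower levels changed, such as *Slc17a6* with a ctrl mean of 88.2 CPM.

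*Nfix* (ENSMUSG00000001911, chromosome 8, 84699876 to 84800344) was between 400.2 and 957 CPM in ctrl, with a median of 661. Its levels in cKO mice 5, 7, S2 and F3 were 404, 398, 439 and 422 CPM. Those in dKO mice T2, T8, F1 and F7 were 643, 638.5, 579 and 385 CPM. The 4 cKO mice lay close together (coefficient of variation 4.45%, against 25.6% in ctrl and 21.6% in dKO), and 6 of the 7 ctrl mice were above them, ctrl mouse S1 at 400.2 CPM being the exception. The log fold change of *Nfix* was −0.71 ± 0.16 in cKO versus ctrl (FDR = 0.0203), −0.26 ± 0.18 in dKO versus ctrl (FDR = 1) and −0.41 ± 0.17 in cKO versus dKO (FDR = 0.838). The exact permutation p of mean CPM in cKO versus ctrl was 0.0273. *Nfix* was lower in cKO in both litters with ctrl and cKO mice, by log2 ratios of −0.97 in litter 1 and −0.42 in litter 2, where S1 overlapped. In dKO, the log2 ratio to ctrl littermates in litter 3 was −0.03, and mouse F7 of litter 4, at 385 CPM, was far below the other 3 dKO mice. Within batch 1 the cKO log fold change was −0.91 (FDR = 0.00374), and with counts thinned to the total of the shallowest mouse it was −0.76 (FDR = 0.0122). The call was lost with all 3 groups in 1 fit (FDR = 0.063), with wild-type ctrl only (FDR = 0.259), and without any one of cKO mice 5, 7 and F3 or ctrl mice S3, T4 and T5 (FDR between 0.0575 and 0.238), the log fold change staying between −0.81 and −0.60 over the 11 fits that each left out 1 mouse.

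*Nfia* (ENSMUSG00000028565, chromosome 4, 97772734 to 98118874) was between 1915 and 2515 CPM in ctrl, with a median of 2316. In cKO mice 5, 7, S2 and F3 it was 1368, 1636, 2229 and 1518 CPM. In dKO mice T2, T8, F1 and F7 it was 1757, 2311, 1692 and 1573 CPM. In each mutant, 3 mice lay below all ctrl mice and 1 within them, S2 in cKO and T8 in dKO. The log fold change was −0.47 ± 0.14 in cKO (FDR = 0.211) and −0.33 ± 0.14 in dKO versus ctrl (FDR = 1).

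*Nfib* (ENSMUSG00000008575, chromosome 4, 82290173 to 82705750), the member with the highest CPM, was between 2964 and 3847 CPM in ctrl, with a median of 3256. It was 2430, 2639, 2998 and 2721 CPM in cKO mice 5, 7, S2 and F3, and 2520, 3079, 2554 and 2661 CPM in dKO mice T2, T8, F1 and F7. Again S2 and T8 lay within ctrl and the others below it. The log fold change was −0.32 ± 0.12 in cKO (FDR = 0.577) and −0.29 ± 0.13 in dKO versus ctrl (FDR = 1). Within litters, the log2 ratios to ctrl littermates were −0.49 for *Nfia* and −0.50 for *Nfib* in cKO of litter 1, where both cKO mice lay below both ctrl mice. They were −0.07 and −0.04 in cKO of litter 2, with overlap, and −0.25 and −0.24 in dKO of litter 3, where *Nfib* alone was without overlap. With litter as a covariate, neither gene reached an unadjusted p below 0.05 in dKO versus ctrl. Only litter 3 holds both of these groups, so that fit compares 2 dKO with 3 ctrl mice. For both genes cKO and dKO differed by less than the SE, by −0.10 ± 0.19 for *Nfia* and 0.01 ± 0.16 for *Nfib* in cKO versus dKO.

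Mouse S2 stood nearest to ctrl among the cKO mice in *Slc17a6*, *Nfia*, *Nfib* and *Mef2c*. Without it, *Slc17a6* (−0.66, FDR = 0.000725), *Nfia* (−0.63, FDR = 0.00215) and *Mef2c* (0.67, FDR = 0.0124) passed the threshold together with *Nfix* (−0.74, FDR = 0.0121), 4 members in place of 1. The genes called among all listed also went from 83 to 373 in that fit, and S2 was singled out after its values in these members were seen. *Knl1* was 80.4 CPM in S2 and between 50.004 and 51.8 CPM in the other cKO mice, but its level also differed between litters. The ctrl littermates of S2, S3 and S1, had 72.2 and 68.4 CPM of *Knl1*. In litter 1 it was 48.7 and 49.1 CPM in ctrl mice 2 and 6 and 51.8 and 50.5 CPM in cKO mice 5 and 7. S2 was also the deepest mouse and the only cKO mouse of its litter. What sets S2 apart was not tested.

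*Bcl11a* (CTIP1), a zinc finger factor of deep-layer and area identity, had the smallest coefficient of variation of the 10 genes in ctrl (4.90%) and in dKO (2.55%). *Bcl11a* (ENSMUSG00000000861, chromosome 11, 24078056 to 24174123) was between 850 and 989 CPM in ctrl, with a median of 937. It was 902, 851, 971 and 903 CPM in cKO mice 5, 7, S2 and F3, and 854, 897, 900.2 and 899.6 CPM in dKO mice T2, T8, F1 and F7. The groups overlapped. Its log fold change was −0.05 ± 0.11 in cKO and −0.06 ± 0.12 in dKO versus ctrl.

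**Figure D3:**
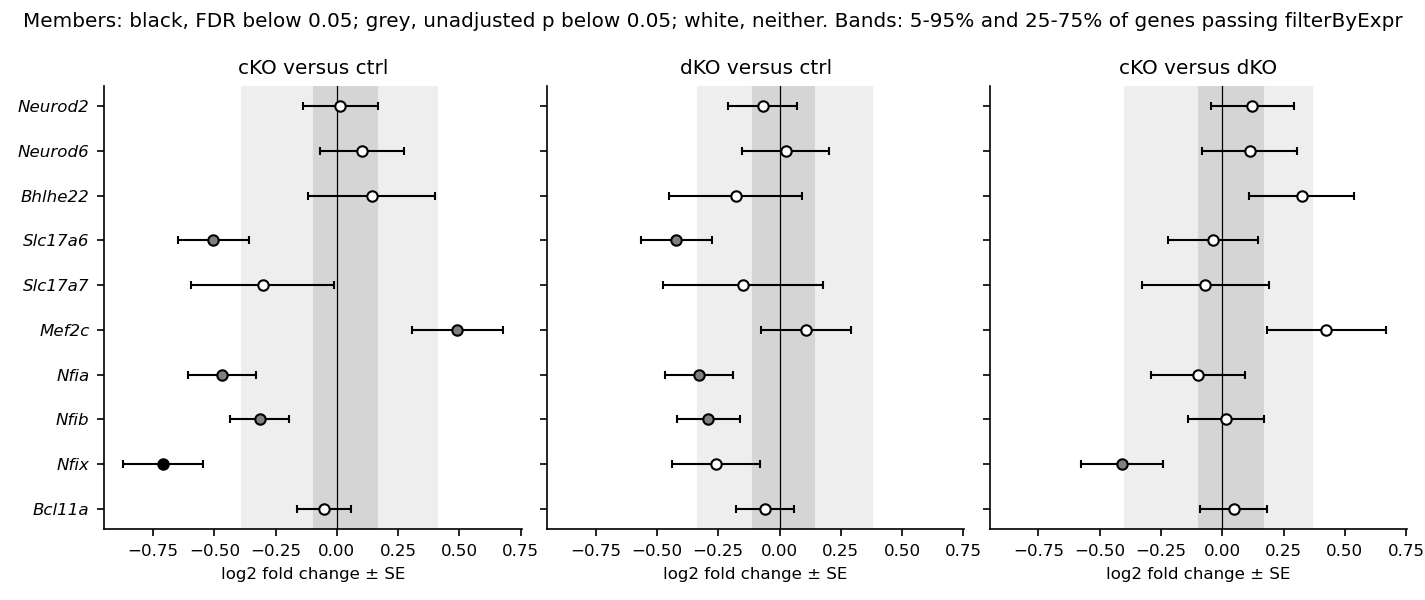
Log2 fold change with SE of each of the 10 genes in the 3 comparisons. Black points pass an FDR of 0.05 and grey points an unadjusted p of 0.05, and the bands hold 5 to 95% and 25 to 75% of the genes passing filterByExpr, whose 5th percentile is −0.39 in cKO versus ctrl. *Nfix*, *Slc17a6* and *Nfia* lie below that band in cKO, and *Mef2c* lies above it.

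Counted together in cKO versus ctrl, 1 of 10 members was lower at an FDR below 0.05, where 0.16% of all listed genes passed in either direction. Of the 51912 listed genes only 27394 had a count. Among the 10992 genes passing filterByExpr, as all 10 members did, 43 were lower and 25 higher at that FDR. At an unadjusted p below 0.05, 4 members were lower and 1 was higher, where 3.82% and 6.63% of the 10992 genes passing edgeR's filterByExpr were lower and higher. No member separated the groups without overlap, as 0.337% of genes did with every cKO mouse below ctrl and 0.937% with every cKO mouse above. The median log fold change was −0.18 for the members and 0.04 for the filtered genes.

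In dKO versus ctrl, 0 of 10 members passed the FDR threshold in the edgeR likelihood ratio test, where 0.0501% of all listed genes did. At an unadjusted p below 0.05, 3 members (*Slc17a6*, *Nfia* and *Nfib*) were lower and 0 higher, where 2.42% and 3.31% of 9638 filtered genes were lower and higher. The quasi-likelihood test gave 0 members at the FDR threshold and 4 at the unadjusted one. DESeq2 gave 1 (*Nfib*, FDR = 0.0385) and 3, where 8 of 25575 genes passed its FDR threshold. It returned no FDR for *Slc17a6*, *Bhlhe22* and *Slc17a7*, so these could not be called there. Only *Slc17a6* had every dKO mouse below every ctrl mouse, as had 0.394% of genes, and no member had every dKO mouse above, as had 0.301%. The median log fold change was −0.16 for the members and 0.01 for the filtered genes. Both comparisons share the 7 ctrl mice, so their common direction for *Slc17a6*, *Nfia* and *Nfib* is not independent.

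In cKO versus dKO, 0 of 10 members passed the FDR threshold in edgeR's likelihood ratio test, the quasi-likelihood test and DESeq2, where 0.052% of all listed genes passed in the first. At an unadjusted p below 0.05, *Nfix* was lower in cKO and 0 members were higher, where 1.53% and 2.58% of 12484 filtered genes were lower and higher. The other tools gave 2 members (quasi-likelihood) and 1 member (DESeq2) at that level. Since 3 of the 4 cKO mice were in batch 1 and all dKO mice in batch 3, batch largely follows the group here. Mouse F3 was the only cKO mouse in batch 3 and in litter 4, the sole litter with both mutants. Fits by batch or litter thus set F3 alone against dKO mice and cannot separate genotype from that mouse. The *Nfix* log fold change was −0.39 with batch as a covariate, −0.39 within batch 3 and −0.17 with litter as a covariate. With batch as a covariate, *Neurod2* was 0.45 and *Mef2c* 0.70. No member separated the mutants, where 1.07% of genes had every cKO mouse below every dKO mouse and 2.73% every cKO mouse above. The median log fold change was 0.03 for the members and 0.05 for the filtered genes.

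**Figure D4:**
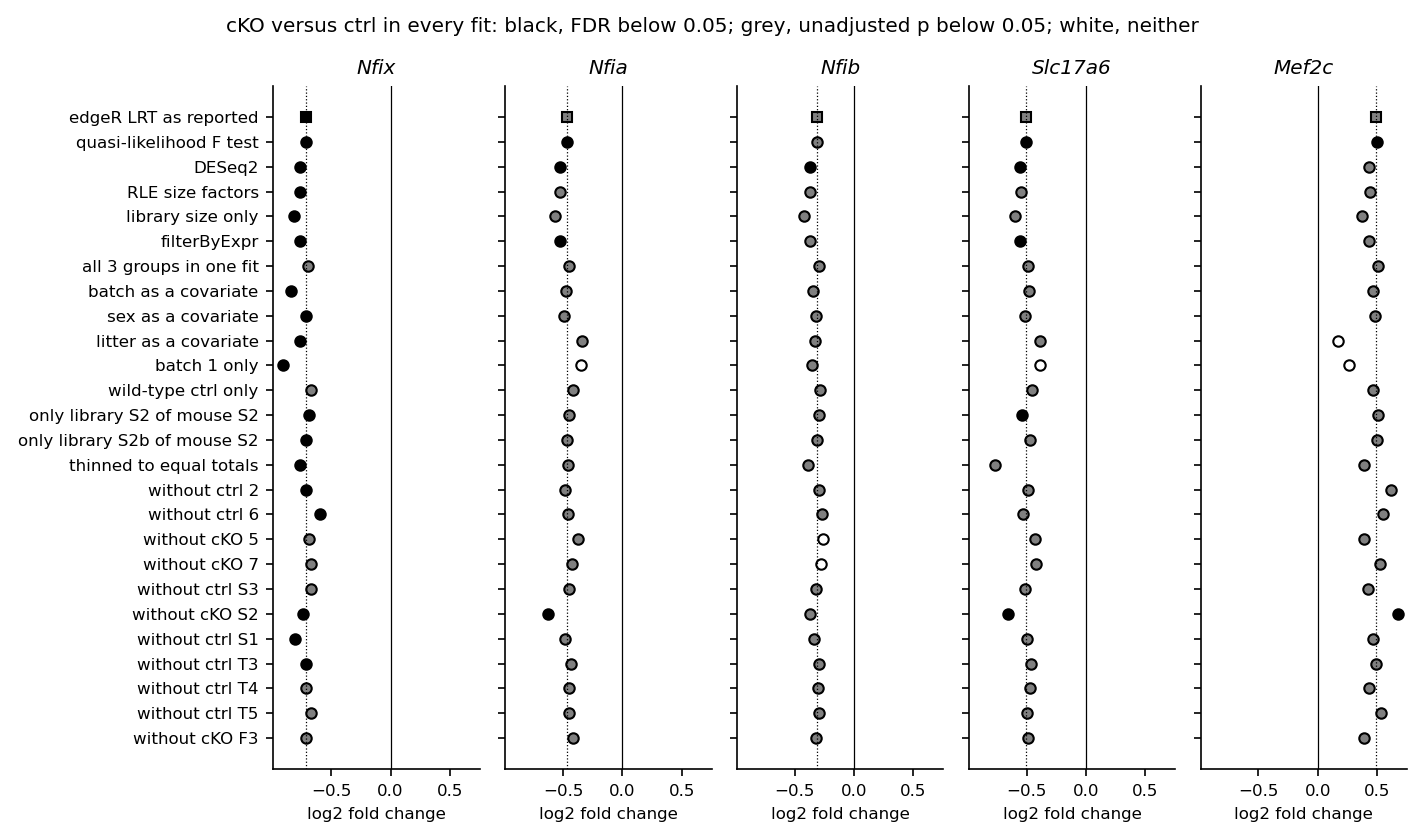
Log2 fold change in cKO versus ctrl of *Nfix*, *Nfia*, *Nfib*, *Slc17a6* and *Mef2c* in the reported fit (square) and 25 others (circles), filled black at an FDR below 0.05 and grey at an unadjusted p below 0.05. *Nfix* stays between −0.91 and −0.60, and the *Mef2c* value is smallest, 0.17, with litter as a covariate.

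Paralogs of the members were then examined. *Neurod1*, *Bhlhe23* and *Mef2b* were listed at 0 in all 15 mice. *Neurod4* and *Slc17a8* (VGLUT3) were near the floor of 3 counts, at means of 3.91 and 1.95 CPM in ctrl. *Nfic*, the remaining NFI gene, had 32.1 ± 7.10 CPM in ctrl (n = 7), 27.8 ± 2.03 in cKO and 28.1 ± 4.08 in dKO (n = 4 each). Its log fold change was −0.21 ± 0.16 in cKO and −0.17 ± 0.20 in dKO versus ctrl. *Mef2a* and *Mef2d* had log fold changes of 0.10 ± 0.11 and 0.14 ± 0.13 in cKO versus ctrl, and *Mef2a* was above dKO in every cKO mouse, with a log fold change of 0.22 ± 0.13 in cKO versus dKO (FDR = 1). *Bcl11b* (CTIP2), a factor of subcortically projecting neurons and of interneurons, was between 816 and 891 CPM in cKO and between 695 and 777 CPM in dKO without overlap, with a log fold change of 0.24 ± 0.13 in cKO versus dKO (FDR = 1) and 0.25 ± 0.13 in cKO versus ctrl (FDR = 1). Of the 6 paralogs with counts, 0 passed an unadjusted p of 0.05 in any comparison by edgeR's likelihood ratio test.

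Other genes of excitatory neurons were read from a list of 14 layer and maturation genes. In cKO versus ctrl, 10 of the 14 had positive and 4 negative log fold changes, where 4 members were positive and 6 negative. Of the 14, 2 were lower and 0 higher in cKO at an unadjusted p below 0.05. These were *Nrn1*, a secreted neuritin (−0.48 ± 0.15, FDR = 0.262), and *Nrgn*, the calmodulin-binding neurogranin (−1.79 ± 0.69, FDR = 0.746), and the median of the 14 was 0.11. *Nrgn* was also lower in dKO (−2.28 ± 0.68, FDR = 0.760) and was the only one of the 14 at that level. In cKO versus dKO, only *Sox5* was past an unadjusted p of 0.05 (0.31 ± 0.15, FDR = 1). None of the 14 passed an FDR of 0.05 in these 3 comparisons by edgeR, the counts at an unadjusted p below 0.05 being 2, 1 and 1. Of the 12 pan-neuronal genes, 11 had counts (*Tubb3* was listed at 0), and 7 of them were higher in cKO at an unadjusted p below 0.05, with a median of 0.29. The synaptic vesicle gene *Syt1* (0.40 ± 0.12, FDR = 0.216) and the tubulin-binding *Stmn2* (0.44 ± 0.15, FDR = 0.358) led them. In dKO, 1 of 11 was higher (*Nefl*, 0.64 ± 0.25, FDR = 1), with a median of 0.04.

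Markers of other cells were read beside the members. Of 12 progenitor genes, 11 had counts (*Sox2* was listed at 0) and all 11 had negative log fold changes in cKO, 6 at an unadjusted p below 0.05, with a summed level of 526 to 867 CPM in ctrl, 503 to 682 in cKO and 550.1 to 800.2 in dKO. *Eomes*, *Neurog2* and *Emx1* passed the FDR threshold in cKO, at −1.13 ± 0.18, −1.19 ± 0.25 and −0.84 ± 0.19. All 8 interneuron genes had positive values in cKO, 6 at an unadjusted p below 0.05, and *Gad1* passed the FDR threshold (0.56 ± 0.14), with sums of 394 to 844 CPM in ctrl, 743 to 906 in cKO and 570.2 to 810.4 in dKO. The 5 Cajal-Retzius genes summed to 490.5 to 687 CPM in ctrl, 623 to 698 in cKO and 529 to 603 in dKO. Microglia, vessel and blood markers were low: the 7 microglia genes summed to 7.06 to 31.1 CPM in ctrl, 12.5 to 26.2 in cKO and 12.01 to 26.5 in dKO, and the 7 vascular and meningeal genes to 41.5 to 156, 42.5 to 64.5 and 39.8 to 165 CPM. At an unadjusted p below 0.05 versus ctrl, *Cx3cr1* was higher in cKO (0.76 ± 0.36) and dKO (1.02 ± 0.40), and *P2ry12* in dKO (1.17 ± 0.64). *Col1a1* (−3.13 ± 0.96) and *Col3a1* (−2.43 ± 0.82) were lower in cKO. No other gene of these 2 lists reached that p versus ctrl, and none passed the FDR threshold. Only *Cx3cr1* in cKO passed filterByExpr among these values. The 6 red blood cell genes summed to 9.41 to 24.98 CPM in ctrl, 17.5 to 28.7 in cKO and 24.9 to 30.8 in dKO, and *Hba-a2* was higher in dKO than ctrl (1.98 ± 0.47, FDR = 0.0203). At an unadjusted p below 0.05 versus ctrl, 2 of the 6 were higher in cKO and 3 in dKO, and 0 were lower. No gene of these 6 lists other than the stated *Sox2* was at 0 in any group. The part of each cell type in the NFI, *Mef2c* and *Slc17a6* values was not tested.

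**Figure D5:**
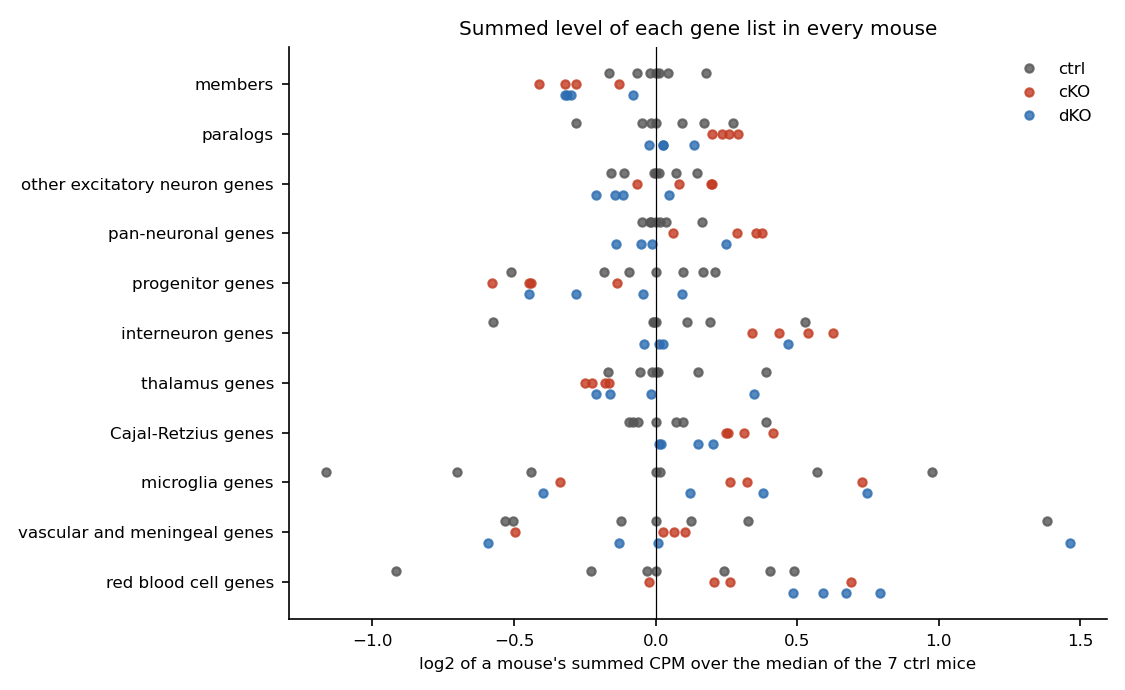
Summed CPM of each gene list in every mouse, as log2 over the median of the 7 ctrl mice, for ctrl (grey), cKO (red) and dKO (blue). The sum of the members, mostly NFI genes, lies below the ctrl median in all mutant mice, while interneuron and pan-neuronal genes lie above it in all 4 cKO mice.

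Across the 15 mice the members did not vary as 1 block. The correlation of log2 CPM between a member and the mean of the other 9 was r = 0.70 for *Neurod2* and 0.63 for *Nfib*, and between −0.09 (*Mef2c*) and 0.29 (*Nfix*) for the other 8. Among 6815 other genes with at least 20 CPM on average and 5 counts in every mouse, those most like the mean of the 10 members were *Tiam2* (r = 0.91), *Hs6st2* (0.89), *Cttnbp2* (0.84), *Slc1a3* (0.84) and *Cntn2* (0.83). These values describe 15 mice that share libraries, depth and scaling with the genes compared, and the mean of the members had r = −0.10 with the log10 of the total count.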

How the data were processed

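Cortical RNA of 15 E15.5 mice was sequenced in 16 ClickSeq libraries. The authors trimmed reads with cutadapt 1.13, aligned them to mm10 (GRCm38) with STAR 2.5.2a, removed PCR copies with UMI-tools 0.5.3 and counted genes with HTSeq 0.6.1p1, per the labels and the methods of the study. The deposited values are whole-number counts of deduplicated reads per gene, without normalization. The release of the annotation and the strand setting of the counting are not given in the sources used here. The 5 summary lines of each file were left out; reads on no gene were 6.40 to 15.8% of the gene counts. Symbols, loci and exon lengths came from GENCODE M21, which matched 51633 identifiers. At most 2.40% of the exon bases of a member were shared with another gene.

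The 10 members and all gene lists were chosen with earlier results of these data known, and all 10 members are named, with all paralogs, up to 4 genes per comparison of each other list and its genes below the FDR threshold.

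R 4.3.3 with edgeR 4.0.16 fitted each comparison on the 2 groups it concerns (TMM, estimateDisp, glmFit and glmLRT), without a filter or covariate, and FDR values are Benjamini–Hochberg adjusted over all 51912 genes. The labels name separate mice, and p-values measure the spread between them. The reported fits and the permutation tests treat the mice as independent. Mice shared litters and batches that are uneven over the groups, so such differences enter these p-values. Permutation tests were two-sided and exact. Correlations used log2 CPM with a prior count of 2. In simulated data with log2 changes of 1 and 0.5 the edgeR fit was checked for recovery. The simulation gave all genes the same dispersion and held no batch or litter, so it cannot test the calls in these data. Alternatives were the quasi-likelihood test, DESeq2 1.42.0, RLE factors or library size alone, filterByExpr, all groups in 1 fit, batch, sex or litter as covariate, 1 batch only, wild-type ctrl only, either S2 library, thinned counts and each mouse left out. A floor of 3 counts is 7.50 CPM in the shallowest mouse and 0.341 CPM in the deepest, before TMM scaling, and covers counting error only. Plots used Python 3.11.15 and matplotlib 3.10.9.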

Additional observations from a re-analysis of the deposited data

Results flagged for a closer look

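In 5 of 30 groups of mice (10 genes in 3 genotypes), 1 mouse stood far from the others of its group by Dixon's test at 95%, a test that chance alone passes in about 1 of 20 groups. For dKO mouse T2, *Neurod6* was 64.6 CPM, the lowest of its group by 0.89 of the range, *Slc17a7* was 34.8 CPM, the highest by 0.92, and *Bcl11a* was 854 CPM, the lowest by 0.937. T2 had the fewest counts of the dKO mice, 552186, and the 3 flags share that library. *Slc17a7* was 11.2 CPM in cKO mouse 5, the lowest by 0.953 of the range. *Bhlhe22* was 82.3 CPM in ctrl mouse 6, the highest by 0.579 of the range. No member differed between cKO and dKO at an FDR below 0.05.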

How the results depend on the processing

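For cKO versus ctrl, the number of members below an FDR of 0.05 (1 as reported) was 4 with the quasi-likelihood test and with DESeq2, 3 with filterByExpr, 2 with only library S2, 0 with all 3 groups in 1 fit or wild-type ctrl only, and between 0 and 4 when 1 mouse was left out. In dKO versus ctrl it was 1 with DESeq2, which gave no FDR for *Slc17a6*, *Bhlhe22* and *Slc17a7*, and 0 in each other alternative and leave-out. Members at an unadjusted p below 0.05 were 2 within batch 1 in cKO versus ctrl (5 reported). They were 1 with litter as a covariate in dKO versus ctrl (3 reported), where only litter 3 held both groups, and 1 to 4 over the leave-outs. In cKO versus dKO (1 reported) they were 2 with the quasi-likelihood test or thinned counts, and 0 to 3 over the leave-outs. Fits of cKO versus dKO by batch or litter are not counted, since they rest on cKO mouse F3 alone.

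For cKO versus ctrl, the genes below an FDR of 0.05 (83 among all listed) were 352 with the quasi-likelihood test. They were 138 of 25751 tested with DESeq2, 138 of 10992 with filterByExpr and 49 with all 3 groups. In batch 1 they were 13, with wild-type ctrl 16, with thinned counts 26 and over the leave-outs 17 to 373. In dKO versus ctrl (26) they were 113, 8, 14 and 14 with the first 4 of these, 17 with batch as a covariate, wild-type ctrl or thinned counts, 4 with litter, and 17 to 59 over the leave-outs. In cKO versus dKO (27) they were 184, 7, 14 and 14 with the same 4 and 61 with library size only. They were 44 with sex as a covariate, 5 with thinned counts and 6 to 179 over the leave-outs. DESeq2 and filterByExpr tested fewer genes than all listed in each comparison.

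Directions turned by more than the SE only for members without a call, and turns within the SE are not listed. In cKO versus ctrl, litter as a covariate gave −0.17 for *Neurod2*, −0.13 for *Neurod6* and −0.19 for *Bhlhe22*, and batch 1 gave −0.21 for *Neurod2* and −0.12 for *Bhlhe22*. In dKO versus ctrl, *Bhlhe22* was 0.35 with batch as a covariate and 0.36 in batch 3, and *Mef2c* was −0.18 with litter. In cKO versus dKO, litter gave −0.075 for *Bhlhe22* and 0.30 for *Slc17a7*, and thinned counts gave −0.068 for *Bhlhe22*, 0.21 for *Slc17a6* and 0.20 for *Slc17a7*. Over the leave-outs, *Slc17a7* in cKO versus ctrl was −0.46 to 0.024, *Bhlhe22* in dKO versus ctrl −0.30 to 0.20 and *Mef2c* in dKO versus ctrl −0.13 to 0.25. The cause of these changes was not tested. The median log fold change of the members in cKO versus ctrl (−0.18 reported) ran from −0.28 within batch 1 to −0.013 without ctrl mouse 2. In dKO versus ctrl (−0.16 reported) it ran from −0.26 without ctrl mouse S1 to −0.075 without dKO mouse T8. In cKO versus dKO (0.03 reported) it ran from −0.085 with library size only to 0.087 without cKO mouse 5. Depth limits *Bhlhe22* and *Slc17a7*, which had as few as 7 counts in a mouse. The groups share no replicate numbers, and litter was the block fitted in place of such a pairing.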
